A study of Mus musculus with 24 samples.

Results

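BALB/c lungs taken 24 h after intratracheal bleomycin at 1.5 U per kg were compared with BALB/c lungs taken 24 h after intratracheal saline. The comparison rests on 4 of the 24 arrays of the series, 2 arrays of each treatment, and the groups were read from the sample titles. All 4 arrays carried total RNA of whole mouse lung from the same inbred strain, 1 sample per array. In the bleomycin group the description field lists several harvest times, and in the saline group it names bleomycin or saline, so the time and treatment given by the title were followed in both. The arrays of a group are marked a and b. No label says whether a and b came from separate mice. The p-values measure only a spread between arrays of a group, pooled over all 24 arrays of the series, which may be technical. Age and sex of the mice are not stated in the labels. The other arrays of the series hold BALB/c lungs at 72 h and 14 d and C57BL/6J lungs at all times, and the series asks by its title why strains differ genetically in how readily their lungs become fibrotic. BALB/c is widely used as a strain that scars less than C57BL/6 after bleomycin.

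Bleomycin binds iron and oxygen and cuts DNA, and the breaks activate kinases that stabilise the transcription factor p53. p53 binds pairs of a short half-site near its target genes and raises inhibitors of the cell cycle such as Cdkn1a together with its own inhibitor Mdm2. In the lung the drug first injures the epithelium and endothelium of the alveoli, and inflammation and scarring follow. Whole lung holds many cell types, so in these data fewer cells of a type and less RNA per cell cannot be told apart.

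The median intensity was 395 and 408 on bleomycin arrays a and b and 379 and 364 on saline arrays a and b. Across the probe sets tested, the log2 values of the bleomycin arrays correlated with r = 0.97 and those of the saline arrays with r = 0.95, while the bleomycin to saline pairs lay between 0.93 and 0.95. H2-Ea, an MHC class II chain that C57BL/6 mice do not express, read 2917 to 5409 on the 4 arrays. Lung markers were present, with Ager of alveolar type 1 cells at 680 to 5867, Scgb1a1 of club cells at 2193 to 8703 and the endothelial gene Cdh5 at 4234 to 5056. Sftpc, the surfactant protein that defines alveolar type 2 cells, read only 286 to 1189, and the alpha globin Hba-a1 58.4 to 442. On the C57BL/6J saline 24 h arrays the same probe sets read 78641 and 43230 for Sftpc and 63583 and 37045 for Hba-a1. Those arrays reached maxima of 78641 and 43230, against at most 21462 on any of the other 22 arrays, so Sftpc and Hba-a1 were not read as levels here. Ager (30434 and 23389) and Scgb1a1 (54857 and 37086) were also far brighter on those arrays. On 18 further arrays Ager ranged from 224 to 14225 and Scgb1a1 from 129 to 21462, so both were read here only as present. Heart muscle RNA was present in both groups, with Myh6 at 2649 and 1859 on the bleomycin arrays and 2943 and 1928 on the saline arrays.

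The saline arrays differed from each other more than the bleomycin arrays did, in genes of acute inflammation. More than 2 log2 units apart, 24 of 6464 genes were higher on saline b than on saline a and 1 gene was higher on saline a, while the bleomycin arrays had 0 such genes. Saa3, an acute phase protein made in injured lung, read 9053 and 7086 after bleomycin and 477 and 6917 after saline. The neutrophil attractant Cxcl1 read 1059 and 1197 after bleomycin and 181 and 3720 after saline. Lcn2, which neutrophils and epithelium release to bind bacterial iron carriers, read 4035 and 4385 after bleomycin and 1323 and 11847 after saline. For Cxcl1 and Lcn2 both bleomycin arrays lay between the saline arrays, and for Saa3 saline b lay just below the bleomycin arrays. The BALB/c saline arrays of 14 d were on the side of saline a, with Saa3 at 341 and 691, Cxcl1 at 273 and 256 and Lcn2 at 1677 and 1352.

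The metallothionein Mt2, which binds metals and is raised by stress and glucocorticoids, had the same order at 4474 and 7115 after bleomycin and 1277 and 8941 after saline. Acod1, the itaconate enzyme of activated macrophages, read 155 and 176 after bleomycin, 32.1 on saline a and 2695 on saline b. Over the list of acute phase and neutrophil proteins, the summed intensity was 49447 and 48352 on the bleomycin arrays, 26408 on saline a and 75654 on saline b. None of the 20 tested genes of that list was called. Both bleomycin arrays lay above both saline arrays for 6 (30%, against 26.6% of all genes) and below for 1 (5%, against 19.4%). The median log2 difference of the list was 0.19, which became 0.75 without saline b and -0.45 without saline a. Without saline b, Saa2 (2.42, adjusted p = 0.0052) and the copper carrier Cp were called higher in this list, against 19 genes higher and 18 lower of all 6464 genes (0.294% and 0.278%). Whether inflammatory RNA on saline b takes part in the results below was not tested. Without saline a the median of 12 of 35 gene lists changed sign, and without saline b that of 7.

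**Figure D1:**
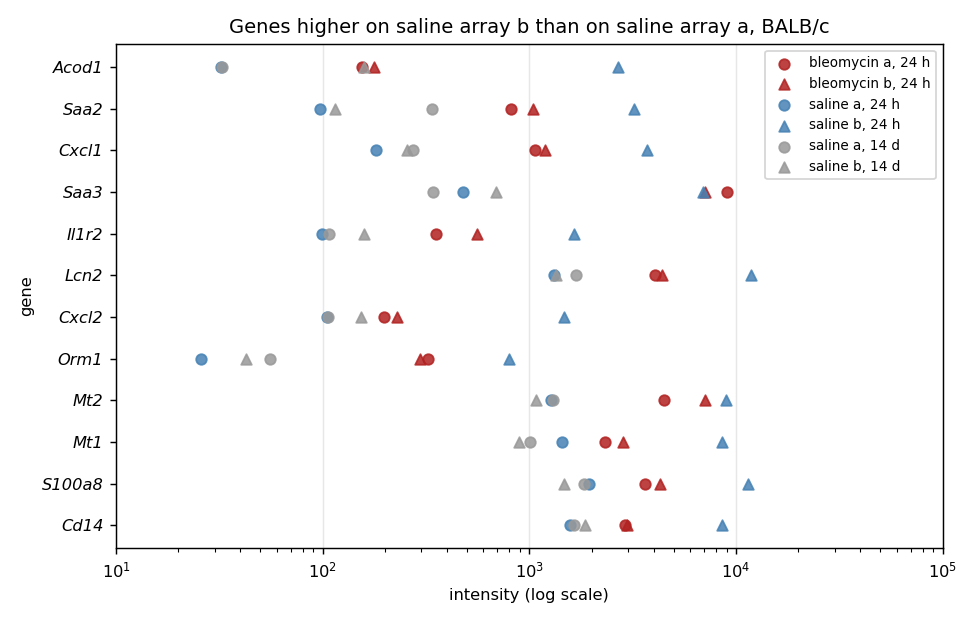
Intensity (log scale, x axis) of the 12 genes with the widest excess of saline b over saline a, on the BALB/c bleomycin and saline arrays of 24 h and the BALB/c saline arrays of 14 d, 1 point per array. Saline b of 24 h lies to the right of saline a for every gene shown, from Cd14 (1578 and 8563) to Acod1 (32.1 and 2695), while both saline arrays of 14 d lie far to the left of saline b of 24 h.

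Few probe sets passed the test. Intensities were compared on the log2 scale after adding 92, with limma and a spread pooled over all 24 arrays, and a probe set was called at a Benjamini-Hochberg adjusted p under 0.05. Of 8710 probe sets tested, 19 were called (0.218%), 11 higher (0.126%) and 8 lower (0.0918%) after bleomycin. At an unadjusted p under 0.05 there were 1182 (13.6%). Of the 19 called, 15 carry 1 gene name, 1 carries several and 3 carry none in the array annotation. Taking for each gene its brightest probe set, 10 of 6464 genes were called (0.155%), 6 higher (0.0928%) and 4 lower (0.0619%). Among all 6464 genes, both bleomycin arrays lay above both saline arrays for 1717 (26.6%) and below for 1255 (19.4%), shares that became 23.2% and 23% after quantile normalization. The median log2 difference of all genes was 0.03, and 53.7% of them had a positive difference.

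**Figure D2:**
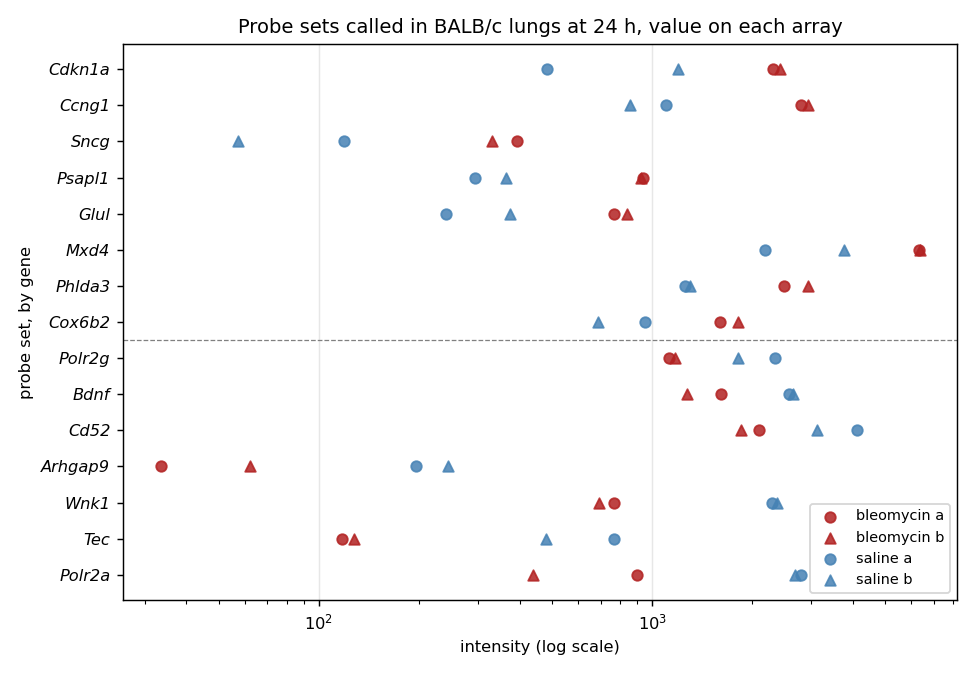
Intensity (log scale, x axis) on each of the 4 arrays for the 15 called probe sets with 1 gene name, ordered by log2 difference, with genes higher after bleomycin above the dashed line. The bleomycin and saline points do not overlap for any gene shown, and the saline points of Cdkn1a (482 and 1194) and Mxd4 (2186 and 3764) lie apart while their bleomycin points lie close together.

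The p53 targets Ccng1, Cdkn1a and Phlda3 rose. Ccng1 encodes cyclin G1, which recruits a phosphatase that acts on Mdm2. It read 2789 and 2936 on the bleomycin arrays and 1100 and 856 on the saline arrays, with no overlap. The log2 difference was 1.47 ± 0.21 (SE, n = 2 against 2, adjusted p = 0.0056). Cdkn1a encodes p21, the inhibitor of cyclin-dependent kinases that holds damaged cells in G1. Its brighter probe set read 2307 and 2424 after bleomycin and 482 and 1194 after saline, so the saline arrays were apart from each other as well as from the bleomycin arrays. The log2 difference was 1.52 ± 0.27 (adjusted p = 0.0298). A second Cdkn1a probe set read 2150 and 2832 against 703 and 1420 and differed by 1.22 ± 0.31, which was not called (adjusted p = 0.0977). Phlda3, a p53 target that blocks the membrane recruitment of Akt, read 2491 and 2939 after bleomycin and 1254 and 1295 after saline. It differed by 1.03 ± 0.20 (adjusted p = 0.0446), with both saline arrays close together.

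These calls depended on single arrays. Without bleomycin b none of the 3 was called (adjusted p = 0.169 for Ccng1, 0.378 for Cdkn1a and 0.416 for Phlda3). Ccng1 stayed called without each of the other arrays, with log2 differences between 1.31 and 1.64 over all such fits. Cdkn1a differed by 2.10 without saline b (adjusted p = 0.0012), by 0.93 without saline a (adjusted p = 0.207) and by 1.55 without bleomycin a (adjusted p = 0.0925). Phlda3 lay between 0.92 and 1.15 and was not called in any of them (adjusted p = 0.0647 to 0.416). With the 14 d saline arrays added to the control, all 3 were called, Cdkn1a at 1.72, Ccng1 at 1.36 and Phlda3 at 1.01 (adjusted p = 0.0024, 0.0018 and 0.0091).

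The RefSeq promoter windows of the 3 genes (GRCm38.p6, 250 bases before to 50 after the annotated start) are shown because p53 binds near the starts of several of its targets. Capitals mark matches to the p53 half-site, a palindrome of 10 bases searched by its consensus with no mismatch allowed, which reads the same on both strands. Cdkn1a on chr17:29090729-29091028 (plus strand) held 2 matches, Ccng1 on chr11:40755237-40755536 (minus strand) held 1, and Phlda3 on chr1:135765835-135766134 (plus strand) held 0.
Cdkn1a: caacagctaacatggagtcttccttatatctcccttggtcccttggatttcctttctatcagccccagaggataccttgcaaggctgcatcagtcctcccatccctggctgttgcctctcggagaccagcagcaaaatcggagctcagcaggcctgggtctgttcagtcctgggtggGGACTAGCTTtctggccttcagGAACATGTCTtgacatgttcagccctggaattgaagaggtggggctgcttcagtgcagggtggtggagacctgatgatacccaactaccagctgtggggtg
Ccng1: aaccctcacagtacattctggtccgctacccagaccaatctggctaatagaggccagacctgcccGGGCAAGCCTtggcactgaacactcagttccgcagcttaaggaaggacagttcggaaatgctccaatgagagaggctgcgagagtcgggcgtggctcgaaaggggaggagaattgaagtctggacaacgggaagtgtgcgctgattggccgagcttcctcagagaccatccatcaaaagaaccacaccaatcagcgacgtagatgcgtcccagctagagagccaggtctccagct
Phlda3: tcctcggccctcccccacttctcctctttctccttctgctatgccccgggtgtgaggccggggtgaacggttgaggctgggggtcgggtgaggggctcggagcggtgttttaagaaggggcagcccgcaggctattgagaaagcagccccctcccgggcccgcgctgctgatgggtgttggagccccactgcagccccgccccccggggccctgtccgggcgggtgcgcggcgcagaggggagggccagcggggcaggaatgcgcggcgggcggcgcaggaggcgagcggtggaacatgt

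In Cdkn1a the matches begin 73 and 51 bases before the start, and in Ccng1 the match begins 185 bases before it. A second annotated start of Cdkn1a, on chr17:29093519-29093818, held none. The Phlda3 window ends in gaacatgt, which fits the first bases of the half-site and is cut off by the window edge. The bases beyond that edge were not searched, so the count for Phlda3 covers the window alone. Of all 32851 promoter windows, 8.36% held at least 1 match and 0.359% at least 2. Of the 29 tested genes of the p53 list, 24 had a window, and 8 of these 24 (33.3%) had a match in at least 1 window, against 9.55% of the 27025 genes with a window. Besides Cdkn1a and Ccng1 these were Ckap2, Ei24, Gadd45a, Gtse1, Mdm2 and Sesn1. A match is a description of the letters in the window and no evidence of binding.

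The list of p53 targets and DNA damage genes held 48 genes, of which 33 were on the array and 29 were tested. Of these 29, 3 were called higher and 0 lower, against 0.0928% and 0.0619% of all genes. Both bleomycin arrays lay above both saline arrays for 16 (55.2%, against 26.6% of all genes) and below for 3 (10.3%, against 19.4%), and 21 had a positive difference. Their median log2 difference was 0.20, against 0.03 over all genes. After quantile normalization 14 were above and 4 below, against 23.2% and 23% of all genes, with a median of 0.13. The summed intensity of the list was 40821 and 41066 on the bleomycin arrays and 32565 and 33394 on the saline arrays. A higher median than that of the p53 list was found for red cell genes (0.28, 5 of 10 above and 1 below). The same held for nerve and neuroendocrine genes (0.24, 4 of 10 above and 2 below). The 5 red cell genes above include Hba-a1, which had the largest difference of that list (1.02) and was not read as a level here.

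Mdm2, the ubiquitin ligase that degrades p53, read 2881 and 3337 after bleomycin and 1816 and 1712 after saline. The groups did not overlap, and the difference of 0.78 ± 0.18 was not called (adjusted p = 0.0748). Zmat3, an RNA-binding p53 target, read 1522 and 1619 against 919 and 844 and differed by 0.77 ± 0.17 (adjusted p = 0.0602). Both were called after quantile normalization and when the 14 d saline arrays were added to the control. Ddit4, which restrains mTOR under stress, read 2684 and 1959 after bleomycin and 672 and 1302 after saline, a difference of 1.21 ± 0.33 (adjusted p = 0.113), and it was called with the added control. Gtse1, a mitotic protein that carries p53 out of the nucleus, read 427 and 565 against 318 and 83.7, with the saline arrays far apart (1.12 ± 0.45).

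Other members with non-overlapping groups were smaller or dimmer. Ak1, a kinase that balances adenine nucleotides, differed by 0.85, and Perp, a desmosome protein that p53 also uses in apoptosis, by 0.65. Rprm, a brake on entry to mitosis, differed by 0.53, Ckap2 of the mitotic spindle by 0.50 and Ei24 of the endoplasmic reticulum by 0.48. Tap1, the peptide transporter of antigen presentation, differed by 0.33 and Pcna, the sliding clamp of replication, by 0.28. None of these was called (adjusted p = 0.134 to 0.611). Rrm2b, a subunit of ribonucleotide reductase, differed by 0.20, and Casp1, the protease of inflammasomes, by 0.06, both with non-overlapping groups.

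The members with overlapping groups lay between -0.11 and 0.20. They were Trp63 (0.20), Atf3 (0.15), the death receptor Fas (0.10), Gadd45g (0.09), Apaf1 of the apoptosome (0.03), Gadd45a (-0.07), Xpc of nucleotide excision repair (-0.07), Ccng2 (-0.07), Gadd45b (-0.08) and Sesn1 (-0.11). Members lower on both bleomycin arrays were Btg2, an antiproliferative gene, at 2017 and 2308 against 3568 and 3787 (-0.74), and the polo-like kinase Plk2 at 3976 and 3381 against 5050 and 4945 (-0.44). Neither was called (adjusted p = 0.34 and 0.333). The probe set of Plk3 read 1.13 and 3.49 after bleomycin and 368 and 575 after saline, a difference of -2.56 ± 0.97 that was not called (adjusted p = 0.248) except with the 4 arrays alone. Its name ends in _r_at, which marks a set built under relaxed rules. The values of the list are those of the brightest set of each gene. A second Gadd45b set was lower on both bleomycin arrays, at 988 and 740 against 1339 and 1201 (-0.52 ± 0.17). So was a second Atf3 set, also marked _r_at (-0.67 ± 0.40). Second sets of Rprm (0.37) and Tap1 (0.53) were higher on both bleomycin arrays. None of these second sets was called.

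**Figure D3:**
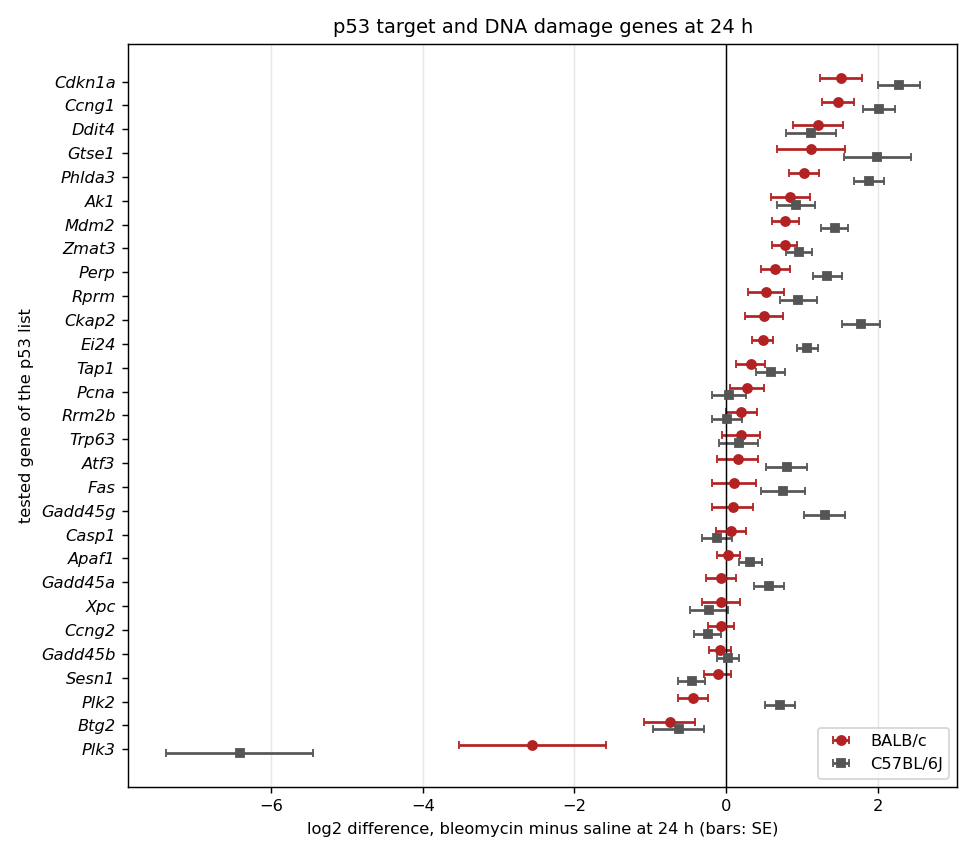
Log2 difference between bleomycin and saline at 24 h (x axis) for the 29 tested genes of the p53 list, in BALB/c (red circles) and C57BL/6J (grey squares), with SE from the model as bars. In BALB/c the points run from 1.52 for Cdkn1a to -2.56 for Plk3, and 20 of the 29 BALB/c values lie below the C57BL/6J value of the same gene.

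Outside the p53 list, 5 further named genes rose. Sncg, gamma-synuclein, a neuronal and adipose protein, read 392 and 330 after bleomycin and 119 and 57 after saline. It was dim on both saline arrays and differed by 1.35 ± 0.23 (adjusted p = 0.0198). A brighter Sncg set marked _f_at read 1350 and 983 against 696 and 740 and was not called (0.62 ± 0.19, adjusted p = 0.156). Mxd4, a partner of Max that opposes Myc, read 6327 and 6343 after bleomycin and 2186 and 3764 after saline. The bleomycin arrays were nearly equal and the saline arrays were not (1.12 ± 0.22, adjusted p = 0.0496). Glul, glutamine synthetase, read 770 and 839 after bleomycin and 240 and 375 after saline (1.19 ± 0.23, adjusted p = 0.0467). Its saline values were below the 921 and 961 of the 14 d saline arrays, which were above the bleomycin values, and with those arrays in the control the difference was 0.49 and no longer called (adjusted p = 0.559). A brighter Glul probe set, 2181 and 2951 against 2253 and 2177, differed by 0.19 and was not called.

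The remaining named genes that rose come from probe sets whose names end in _f_at, which can bind several members of a gene family. Psapl1, a prosaposin-like gene, read 939 and 923 against 294 and 364 (1.29 ± 0.22, adjusted p = 0.0198). Cox6b2, an isoform of a cytochrome oxidase subunit, read 1593 and 1808 against 949 and 687 (0.99 ± 0.16, adjusted p = 0.0149). Neither had overlapping groups. The smallest p of the comparison belonged to 104646_at, a probe set with no gene name here, at 824 and 684 after bleomycin and 73.5 and 94.6 after saline. Its difference of 2.26 ± 0.24 (adjusted p = 2.4e-04) was the only call that remained without bleomycin b. The unnamed sets 102808_at and 102677_at differed by 1.21 and 1.07.

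Named genes that fell included a pair of lymphocyte genes. Tec, a kinase that signals below antigen receptors, read 117 and 127 after bleomycin and 768 and 480 after saline. Both bleomycin arrays were low, and the difference was -1.71 ± 0.33 (adjusted p = 0.0492). Cd52, a small surface glycoprotein of lymphocytes and other leukocytes, read 2091 and 1848 after bleomycin and 4122 and 3114 after saline (-0.84 ± 0.17, adjusted p = 0.0496). With the 14 d saline arrays added, which read 113 and 362 for Tec and 2641 and 2485 for Cd52, neither was called (-1.11 and -0.60, adjusted p = 0.176 and 0.112). The other 20 tested genes of the list of T and NK cells were not called, with a list median of 0.16. In the list 5 genes lay above (22.7%) and 2 below (9.09%), against 26.6% and 19.4% of all genes. The list median became -0.18 without saline b and 0.24 without saline a. Cd3e, a defining T cell marker, read 343 and 426 after bleomycin and 606 and 190 after saline.

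Wnk1, a kinase that controls ion transport, read 766 and 695 after bleomycin and 2293 and 2368 after saline. The arrays within each group were close, and the difference of -1.56 ± 0.22 was called (adjusted p = 0.0056). It fell also with the 14 d saline arrays added (-1.28, adjusted p = 0.0091). Other Wnk1 probe sets were not called. The brightest read 3913 and 4290 against 4286 and 5987, with overlap (-0.30 ± 0.19, adjusted p = 0.506), and another differed by -1.31 ± 0.31 (adjusted p = 0.0748). Bdnf, a neurotrophin that airway nerves and smooth muscle also make, read 1604 and 1275 after bleomycin and 2574 and 2640 after saline (-0.83 ± 0.14, adjusted p = 0.0198). Polr2g, a subunit of RNA polymerase II, read 1122 and 1168 after bleomycin and 2339 and 1815 after saline (-0.80 ± 0.15, adjusted p = 0.0412). It was not called with the 14 d saline arrays added, which read 1371 and 1207 (-0.48, adjusted p = 0.25).

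For Polr2a and Arhgap9 the probe sets of the same gene went different ways. Polr2a, the largest subunit of RNA polymerase II, read 903 and 438 after bleomycin and 2791 and 2685 after saline in a set marked _r_at (-1.96 ± 0.39, adjusted p = 0.0496). Its other tested set differed by 0.32 and was not called. Arhgap9, a gene of blood cells, read 33.6 and 62.1 against 195 and 244 in a set marked _s_at, which can match several transcripts (-1.16 ± 0.23, adjusted p = 0.0496). Its brighter set read 657 and 701 against 549 and 560 and differed by 0.25. The called set with several names, 95543_at, read 416 and 428 after bleomycin and 934 and 983 after saline (-1.03 ± 0.17, adjusted p = 0.0149).

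Of the 15 named probe sets called, 5 remained called without bleomycin a, 0 without bleomycin b, 3 without saline a and 10 without saline b. Without bleomycin b the fit called 1 probe set in all, and without saline b it called 52. The calls lost without saline b were Cox6b2 (adjusted p = 0.057), Phlda3 (0.0647), Sncg (0.0793), Polr2a (0.0825) and Arhgap9 (0.12). Uncalled genes that were called without saline b and are named here were Saa2, Cp, Mt2, Aldh3a1, Gpx2, Bcl3, Sfn and Ccnd1, all higher, and Nr1d2, Scn7a, Ackr4 and Csrp3, all lower. Beside Ccng1, the Cox6b2 call remained without bleomycin a and without saline a, and the Bdnf and Wnk1 calls without bleomycin a and without saline b. A lone array in a group was assumed to vary as the arrays of the other groups do.

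The other gene lists are described by their counts. Each count below is to be read beside the shares of all genes, 26.6% higher and 19.4% lower on both bleomycin arrays. Lists near these shares, such as oxidant defence (31.4% and 25.7%) and endothelium (25.8% and 16.1%), are given as counts only. DNA repair and damage signalling had 0 of 32 genes called, with 21.9% higher and 18.8% lower and a median of 0.01. Apoptosis regulators had 0 of 21 called, with 28.6% higher and 28.6% lower and a median of -0.01. Of 11 tested genes of alveolar type 1 cells, the thin cells of gas exchange, 0 were called, 7 were lower on both bleomycin arrays (63.6%) and 1 was higher, against 19.4% and 26.6% of all genes. Their median log2 difference was -0.37. Ager, the receptor that defines these cells, read 680 and 2054 after bleomycin and 2248 and 5867 after saline, so bleomycin b came close to saline a (-1.54 ± 0.84, adjusted p = 0.428). Ager varied widely over the series, as given above, which limits the reading of its difference. Emp2, a membrane protein of the same cells, read 4826 and 4907 against 7155 and 6995 (-0.53 ± 0.22), and Hopx 3402 and 4050 against 5408 and 6568 (-0.67). Pdpn was the member higher on both bleomycin arrays, at 2312 and 2521 against 1821 and 1888 (0.36). Of the 16 tested genes of alveolar type 2 cells, 5 were lower and 2 higher, with a median of -0.13 and 0 called.

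Airway genes went both ways. Cyp2f2, a cytochrome of club cells that activates toxicants, read 3461 and 3640 after bleomycin and 8261 and 6762 after saline. The groups were far apart, and the difference of -1.06 ± 0.30 was not called (adjusted p = 0.134). Foxj1, the regulator of ciliated cells, read 1239 and 1621 against 809 and 822 (0.73 ± 0.27, adjusted p = 0.231). Reg3g, a secreted lectin that kills Gram-positive bacteria, read 835 and 825 against 323 and 117 (1.65 ± 0.43, adjusted p = 0.103). Of 20 airway genes 4 were higher and 4 lower, with a median of -0.02.

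Among 20 genes of injured epithelium, 6 were higher and 3 lower on both bleomycin arrays, with 0 called and a median of 0.06. Without saline b the median was 0.35 with 17 positive and Sfn called, and without saline a it was -0.13 with 7 positive. Cldn4, a tight junction protein that rises in injured alveoli, read 658 and 857 after bleomycin and 156 and 280 after saline. Its groups were well apart (1.47 ± 0.33, adjusted p = 0.0618), and it was called with the larger offset and in the BALB/c arrays alone. Itgb4, the hemidesmosome integrin, read 852 and 885 against 454 and 320 (1.02 ± 0.23, adjusted p = 0.0736), and it was called with the 14 d saline arrays added. The cornified envelope gene Sprr1a read 571 and 690 against 275 and 257 (1.01), while a set marked _r_at for its neighbour Sprr1b read 733 and 343 against 2439 and 4142 (-2.45 ± 0.82, adjusted p = 0.189), called in the BALB/c arrays alone.

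Genes of the mitochondrial respiratory chain were mostly lower. Of 52 tested, 24 were lower on both bleomycin arrays (46.2%, against 19.4% of all genes) and 5 higher (9.62%, against 26.6%), and 10 had a positive difference, which 53.7% of all genes had. The median was -0.17, and -0.12 after quantile normalization, which left 21 lower and 5 higher, against 23% and 23.2% of all genes. The only call in the list was Cox6b2, in the other direction. Uqcrh, a hinge protein of complex III, read 2647 and 1841 after bleomycin and 3612 and 3616 after saline (-0.69 ± 0.20, adjusted p = 0.134). Ndufa8 of complex I read 1343 and 1115 against 1763 and 1537 (-0.40 ± 0.13, adjusted p = 0.169). Without saline a the list median was -0.17, the same to 2 decimals as with all arrays, while 15 genes rather than 10 were positive.

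Of 19 genes of the unfolded protein response, 7 were lower and 3 higher on both bleomycin arrays, with a median of -0.14 and 0 called. Atf4, the transcription factor of the integrated stress response, read 3472 and 3195 against 4076 and 5748 (-0.53), and the secreted chaperone-like factor Manf 2244 and 1669 against 2759 and 3267 (-0.61 ± 0.20). Cytosolic ribosomal proteins had 10 of 23 lower and 5 higher (median -0.10), and genes of cholesterol and fatty acid synthesis 7 of 18 lower and 2 higher (median -0.05). In both lists 0 genes were called.

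Cell cycle genes had 1 call of 62, Mxd4, and 20 members were lower (32.3%) and 15 higher (24.2%) on both bleomycin arrays, with a median of -0.12. Cdk1, the kinase of entry to mitosis, read 70.4 and 69.5 after bleomycin and 212 and 249 after saline. It was dim on all 4 arrays (-0.99 ± 0.21, adjusted p = 0.0595), and the call was made after quantile normalization and with the 14 d saline arrays added. Gmnn, the inhibitor of replication licensing, read 104 and 50.5 against 209 and 190 (-0.80 ± 0.21, adjusted p = 0.103), and it was called with the 14 d saline arrays added. In the opposite direction, Lig1, the ligase of replication, read 543 and 622 against 295 and 478 (0.52). The list of RNA polymerase II and general transcription had 10 of 25 higher and 6 lower, and Cdk9, the kinase that releases paused polymerase, read 2925 and 2859 against 1446 and 1489 (0.94 ± 0.20, adjusted p = 0.058), which was called after quantile normalization.

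Of 35 genes of oxidant defence 0 were called, with 11 higher and 9 lower on both bleomycin arrays and a median of 0.04. Gclc, the rate-limiting enzyme of glutathione synthesis, read 2209 and 1872 after bleomycin and 1210 and 1229 after saline. The groups did not overlap (0.70 ± 0.18, adjusted p = 0.103). Srxn1, which repairs peroxiredoxins, read 738 and 900 against 448 and 425 (0.78 ± 0.21), and Gsto1, an omega glutathione transferase, 3132 and 2960 against 2034 and 2176 (0.51 ± 0.13, adjusted p = 0.0991). Gclc and Gsto1 were called with the 14 d saline arrays added. Without saline b, which leaves saline a alone, Mt2 of this list differed by 2.07.

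Inflammatory and immune lists had 0 calls apart from Tec and Cd52. In the interferon list 12 of 35 were higher and 7 lower (34.3% and 20%), with a median of -0.04. Isg15, a ubiquitin-like protein, read 1173 and 1156 against 1092 and 794 (0.29 ± 0.16, adjusted p = 0.428), and the antiviral GTPase Mx1 130 and 156 against 39.8 and 53.3 (0.76 ± 0.25, adjusted p = 0.176). Of 25 cytokines and chemokines 5 were higher and 2 lower, with a median of -0.05 that became 0.45 without saline b and -0.26 without saline a. Ccl17, which attracts T cells, read 496 and 336 against 183 and 166 (0.92 ± 0.44), and Ccl7, which attracts monocytes, 133 and 213 against 12.2 and 128 (0.79 ± 0.44). Bcl3, a nuclear regulator of NF-kappaB, read 688 and 695 against 134 and 261 (1.47 ± 0.32, adjusted p = 0.0604), and it was called without saline b and with the 14 d saline arrays added.

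Macrophage genes had 4 of 28 higher and 6 lower (median -0.03), and B and plasma cell genes 7 of 21 higher and 3 lower (median 0.10). Of the defining macrophage markers Marco read 19.6 to 40.8 on the 4 arrays, near the dimmest signals, and Csf1r 1092 to 1296. Genes of MHC class II presentation had 1 of 14 higher and 5 lower, with a median of -0.19 that became 0.02 without saline a, where 7 were positive. H2-Eb1 read 2756 and 2643 after bleomycin and 4393 and 3415 after saline (-0.51 ± 0.20, adjusted p = 0.275). Endothelial genes had 8 of 31 higher and 5 lower (median 0.02), and heart and skeletal muscle genes 3 of 25 higher and 2 lower (median -0.05).

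Matrix genes showed no calls at this time. Of 51 genes of collagens and matrix 0 were called, 9 were higher (17.6%) and 12 lower (23.5%), and the median was -0.01. Col1a1, the main fibrillar collagen, read 3590 and 4204 after bleomycin and 3956 and 3562 after saline, with overlap (0.05 ± 0.29). Col3a1 differed by -0.18 ± 0.25, Fn1, fibronectin, by 0.09 ± 0.37 and Tgfb1, the fibrogenic cytokine, by 0.09 ± 0.32. Acta2, the actin of smooth muscle and myofibroblasts, read 4674 and 2879 against 2303 and 3596 (0.34 ± 0.28). Timp1, an inhibitor of matrix proteases, read 4654 and 5063 after bleomycin and 2771 and 8088 after saline, so both bleomycin arrays lay between the saline arrays (0.03 ± 0.44).

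The prolyl hydroxylases of collagen P4ha1 and P4ha2 were lower on both bleomycin arrays (-0.59 ± 0.21 and -0.38 ± 0.13), without a call. The contractile genes Tpm2 (0.73), Cnn1 (0.67) and Myl9 (0.65) were higher on both bleomycin arrays (adjusted p = 0.128 to 0.169), and Cnn1 was called with the 14 d saline arrays added, in a list of 19 with 5 higher and 4 lower. Blmh, the hydrolase that inactivates bleomycin, read 2146 and 2112 after bleomycin and 2002 and 2079 after saline (0.06 ± 0.15, adjusted p = 0.899).

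**Figure D4:**
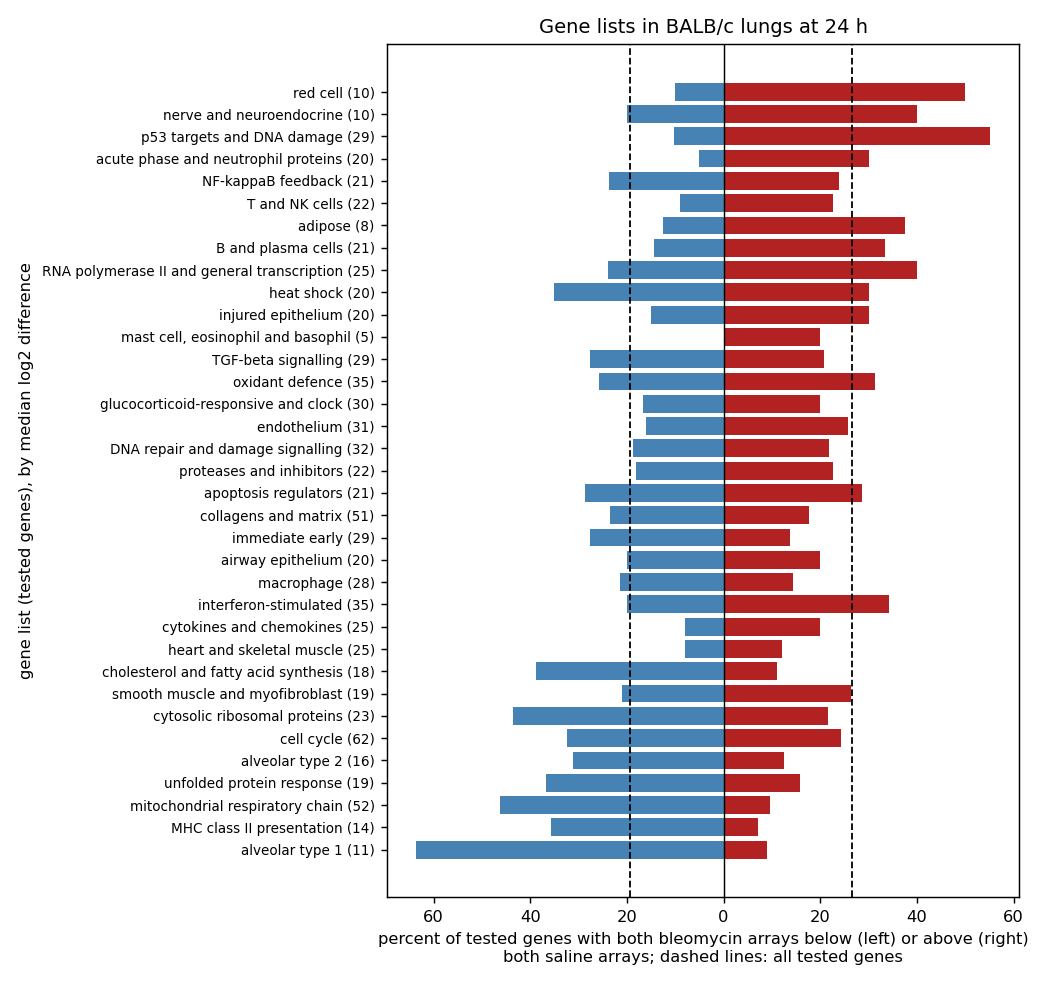
Percent of the tested genes of each of 35 gene lists (y axis, number tested in brackets, ordered by median log2 difference) with both bleomycin arrays above (red, right) or below (blue, left) both saline arrays, in BALB/c at 24 h. Dashed lines mark the 26.6% and 19.4% of all 6464 genes. Bars that reach far past them include those of the p53 list (55.2% above), the red cell list (50% above, 10 genes tested), alveolar type 1 cells (63.6% below) and the respiratory chain (46.2% below). The red cell bar includes Hba-a1, which was not read as a level.

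Several of the largest differences were not called. Zbtb16, a transcription factor that glucocorticoids induce, read 3377 and 5787 after bleomycin and 1115 and 1626 after saline (1.65 ± 0.36, adjusted p = 0.0604), and it was called with the 14 d saline arrays added. Dbp, a transcription factor driven by the clock, read 205 and 189 against 1037 and 479 (-1.47 ± 0.41, adjusted p = 0.115), and Nr1d2, a clock repressor, 941 and 841 against 2114 and 1167 (-0.76 ± 0.21, adjusted p = 0.113). Nr1d2 was called without saline b and with the 14 d saline arrays added. The time of day of harvest is not given in the labels. Scn7a, a sodium channel of glia and nerve, read 491 and 407 against 1566 and 943 (-1.28 ± 0.30, adjusted p = 0.0748), and it was called after quantile normalization, without saline b and with the 14 d saline arrays added. Ackr4, a receptor that scavenges chemokines, read 80.9 and 36.5 against 427 and 151 (-1.25 ± 0.32, adjusted p = 0.0993), and it was called without saline b and with the 14 d saline arrays added. Gatd3a read 1505 and 1294 against 520 and 440 (1.38 ± 0.28, adjusted p = 0.0547), and it was called after quantile normalization, with the smaller offset and with the stricter filter.

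C57BL/6J lungs at 24 h, which share no array with the BALB/c comparison, had 194 of 8710 probe sets called (2.23%), 104 higher (1.19%) and 90 lower (1.03%). The saline arrays of that comparison carry the very bright maxima and a title suffix that no other array has. In that strain treatment and this array difference cannot be told apart. Of the 11 probe sets called higher in BALB/c, 10 were positive in C57BL/6J and 7 were called there in the same direction. Of the 8 called lower, 5 were negative and 0 were called in C57BL/6J. Among these 5, Wnk1 (-0.069), 95543_at (-0.044) and Polr2g (-3.9e-05) lay near 0, and Polr2a (-1.19) and Arhgap9 (-0.74) lay further below it. Read from the other side, of 104 probe sets called higher in C57BL/6J, 62 (59.6%) had both BALB/c bleomycin arrays above both saline arrays, against 27.9% of all 8710. Of 90 called lower, 43 (47.8%) had both below, against 18.7%. Across probe sets the differences of the strains correlated with r = 0.31, a description only, since probe sets are not independent.

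In C57BL/6J the 3 p53 targets read higher after bleomycin than in BALB/c, with Cdkn1a at 3086 and 4035, Ccng1 at 3838 and 3285 and Phlda3 at 4833 and 4669. The saline values of Ccng1 (753 and 868) and Phlda3 (1157 and 1284) were near those of BALB/c. For Cdkn1a they were 663 and 642, between the BALB/c saline values of 482 and 1194. The log2 difference in C57BL/6J was 2.28, 2.02 and 1.89. The response in BALB/c minus that in C57BL/6J was -0.77 ± 0.39 for Cdkn1a, -0.54 ± 0.30 for Ccng1 and -0.85 ± 0.28 for Phlda3, and none of these was called in the test of the strain difference (adjusted p = 0.549, 0.592 and 0.347). Over the list the median was 0.20 in BALB/c and 0.76 in C57BL/6J, and 20 of 29 strain differences were negative, against a positive share of 48.5% among all genes. The smallest adjusted p of a strain difference in the list was 0.167, for Plk2.

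The strain difference of the response was called for 2 of 8710 probe sets (0.023%), Isg15 and Glul. Isg15 read 3938 and 3407 after bleomycin and 1004 and 814 after saline in C57BL/6J, where it rose by a log2 difference of 1.91, against 0.29 in BALB/c. The difference between strains was -1.62 ± 0.23 (adjusted p = 0.0127). Glul in its dimmer probe set read 403 and 458 after bleomycin and 968 and 835 after saline in C57BL/6J, where it fell. In this set the strains went opposite ways (2.11 ± 0.32, adjusted p = 0.0203). Its BALB/c saline values of 240 and 375 were the low side of that difference. The brighter Glul set, which differed by 0.19 in BALB/c, was not called for the strain difference. The C57BL/6J saline arrays of 24 h are those with the very bright maxima, and with the C57BL/6J saline arrays of 14 d in their place 11 probe sets were called, 1 of them in common. The part of that array difference in the strain comparison was not tested.

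At 14 d, on 4 other BALB/c arrays, 1158 of 8710 probe sets were called (13.3%). Of the 19 probe sets called at 24 h, 11 had the same sign at 14 d, 8 of them called, and 1 was called in the opposite direction. The response at 24 h minus that at 14 d was called for 433 probe sets (4.97%), among them 9 of the 19. The 19 were chosen by their difference at 24 h, which enters this same difference. Their count therefore cannot be compared with that share. Cdkn1a read 1576 and 1231 after bleomycin and 542 and 566 after saline at 14 d, Ccng1 1552 and 2510 against 1227 and 1076, and Phlda3 1532 and 2112 against 1421 and 1232. Both bleomycin arrays lay above both saline arrays for all 3 at 14 d, where Cdkn1a and Ccng1 were called and Phlda3 was not (adjusted p = 0.17). The change from 24 h to 14 d was not called for any of them (0.31, 0.74 and 0.62, adjusted p = 0.667, 0.143 and 0.185).

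Other genes, of which Tec, Cd52, Mxd4 and Sncg were chosen by their call at 24 h, did change between the times. Tec went from -1.71 at 24 h to 0.79 at 14 d (difference -2.50, adjusted p = 0.0117), and Cd52 from -0.84 to 0.26 (-1.09, adjusted p = 0.021). Mxd4 went from 1.12 to -0.37 (1.49, adjusted p = 0.0197) and Sncg, at 149 and 105 after bleomycin and 133 and 120 after saline at 14 d, from 1.35 to -0.0023 (1.35, adjusted p = 0.0294). Cdk1 was lower without a call at 24 h and rose at 14 d by 1.36 (difference -2.35, adjusted p = 0.0018). Wnk1 fell at both times (-1.56 and -2.21), and its difference between times of 0.65 was not called. Without bleomycin b of 24 h, 18 probe sets remained called for the time difference, and without bleomycin a of 14 d there were 1111.

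**Figure D5:**
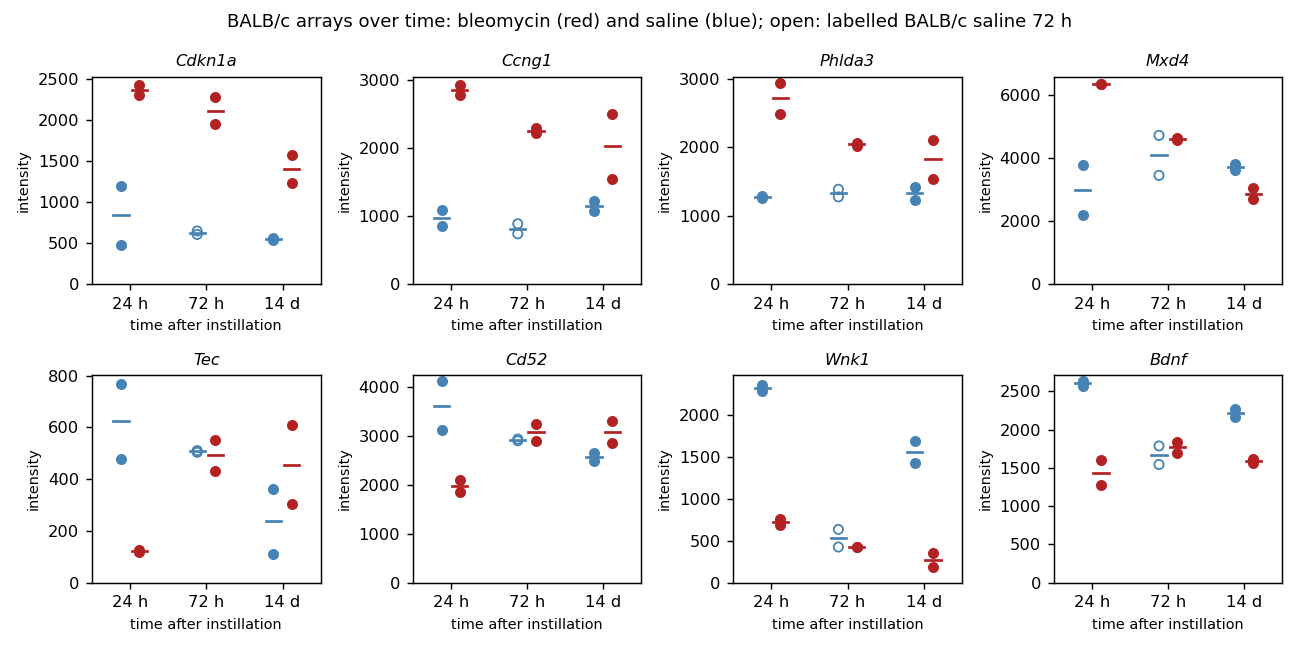
Intensity (y axis, from 0) of 8 called genes on the BALB/c arrays at 24 h, 72 h and 14 d (x axis), with bleomycin in red and saline in blue, 1 point per array and a bar at the mean of 2 arrays. Open circles are the arrays labelled BALB/c saline 72 h, whose strain genes go against the label. Cdkn1a, Ccng1 and Phlda3 are higher in bleomycin than in saline lungs at 24 h and 14 d, no comparison is drawn at 72 h, and Tec is low after bleomycin at 24 h (117 and 127) and also on 1 saline array of 14 d (113).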

How the data were processed

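The members and the gene lists were chosen with earlier results of these data known. The deposited values are linear intensities of Affymetrix MG-U74Av2 arrays, scaled by the authors to a common trimmed mean (799.87 to 799.94 over the values between the 2nd and 98th percentiles, found from the values). Which algorithm made them was not given in the sources. Of 12488 probe sets, 66 controls were left out, and of the other 12422, 10833 are annotated with 1 gene, 396 with several genes and 1193 with no gene. Probe sets above 225.714, the 40th percentile, on at least 2 arrays were tested (8710). The fit used log2(value + 92), so fold changes of dim genes are understated. limma 3.58.1 in R 4.3.3 fitted 12 group means over all 24 arrays, with a variance trend, 12 residual degrees of freedom and two-sided tests, and p-values were adjusted by Benjamini-Hochberg over all probe sets tested. The response of BALB/c was also tested against that of C57BL/6J at 24 h and against that of BALB/c at 14 d. A gene is represented by its brightest tested probe set. The genes described singly were the called ones, the tested p53 list and a set of fibrosis genes with Blmh. From every other list the genes with the smallest p in this comparison were taken, whatever that p was. Further genes had the largest differences among those with an unadjusted p under 0.01 and non-overlapping groups. Genes called in the strain or time difference were also taken, and some list members and markers were added after their values were seen. The number of arrays limits the precision. The arrays labelled BALB/c saline 72 h carry strain genes that go against the label and entered the estimate of the spread and a plot, but no comparison. Alternatives covered normalization, offset, filter, variance model, array letter, the arrays in the fit, the control arrays and leaving out each array. The code was tested on simulated data.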

Additional observations from a re-analysis of the deposited data

Results flagged for a closer look

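In BALB/c, the difference between the responses at 24 h and 14 d was called for 26 of the 163 named genes (limma, Benjamini-Hochberg). Of all 8710 probe sets tested, 433 were called (4.97%). The named genes were chosen partly by values that enter this same difference, so their count cannot be compared with that share. A negative difference means a lower response at 24 h than at 14 d. The difference was negative for the leukocyte genes Tec (-2.50), Arhgap9 (-2.47), Cd52 (-1.09), Cd72 (-1.34), Ccl8 (-2.63), Chil3 (-1.32) and Hdc (-1.41). It was also negative for Cdk1 (-2.35), Gmnn (-1.27) and Pold2 (-1.93) of the cell cycle and replication, for Lsm2 (-2.46), Sf3b5 (-1.13) and Polr2g (-1.20) of RNA synthesis and splicing, and for Mast2 (-2.41), Manf (-1.14) and Ndufa8 (-0.65). Ccl8, a chemokine, differed by 0.12 at 24 h and rose by 2.75 at 14 d, and Lsm2 differed by -0.64 and rose by 1.83. Arhgap9 was called in opposite directions at the times in its dimmer set, -1.16 and 1.31, while its brighter set differed by 0.25 at 24 h.

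The difference was positive for Mxd4 (1.49), Sncg (1.35), Glul (1.72), Zbtb16 (1.84), Cdk9 (1.11), Plau (1.39), Ptprn (1.47), Phf7 (2.76), H2-Bl (2.58) and Sct (2.63). Plau, the urokinase that activates plasminogen, differed by 0.63 at 24 h and fell at 14 d (-0.76). The sets of Phf7, Sct and Pold2 are marked _r_at, those of Arhgap9 and Lsm2 _s_at, that of Zbtb16 _g_at and that of H2-Bl _f_at. The values of Arhgap9, Glul and Sncg come from a dimmer set of each gene.

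Between the strains at 24 h, the difference of the responses was called for Isg15 (-1.62) and for the dimmer set of Glul (2.11). The brighter Glul set was not called.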

How the results depend on the processing

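The 19 calls at 24 h became 33 with quantile normalization (all 19 shared), 12 with no filter, 10 without the 4 saline 72 h arrays, 11 with the 4 arrays alone (3 shared) and 76 when the 14 d saline arrays joined the control (14 shared). They ranged from 1 (without bleomycin b) to 52 (without saline b) when each array was left out, with 18 without bleomycin a and 4 without saline a. In the other settings there were 17 to 25. With the array letter as a replicate block there were 18 calls, 16 of them shared. No label says whether the letters pair the arrays. The a minus b values of the bleomycin and saline arrays correlated with 0.11. Over 66 pairs of groups this ran from -0.28 to 0.31, with 14 above 0.1, and such correlations cannot decide whether letters share processing. The 2 strain differences became 11 with 3 times the offset, 4 with array weights, 5 without the 4 saline 72 h arrays and 11 when saline arrays of 14 d served as the C57BL/6J control. They ranged from 0 to 27 when each array was left out, with 0 without BALB/c bleomycin b or C57BL/6J bleomycin a and 27 without C57BL/6J saline b. The 433 time differences ranged from 18 to 1111. The 3 calls of the p53 list became 5 with quantile normalization, 1 without the 4 saline 72 h arrays, 1 with the 4 arrays alone and 6 with the added control, and ranged from 0 to 2 when each array was left out. The cause was not tested.

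No called gene changed direction. Among uncalled genes, the sign turned with the added control for Gadd45b (0.28), Rrm2b (-0.038), Apaf1 (-0.056), Lsm2 (0.00093) and Mast2 (0.31), and with quantile normalization for Apaf1 (-0.056) and Casp1 (-0.026). Leaving out each array turned it within -0.00042 to 0.68 for Acta2, -0.024 to 0.086 for Apaf1, -0.15 to 0.46 for Atf3, -0.13 to 0.37 for Ccl8, -0.31 to 0.17 for Ccng2, -0.033 to 0.78 for Cma1, -0.063 to 0.16 for Col1a1, -0.053 to 0.26 for Fas, -0.0069 to 0.19 for Fn1 and -0.19 to 0.058 for Gadd45a. The range was -0.20 to 0.044 for Gadd45b, -0.52 to 0.70 for Gadd45g, -0.99 to 0.29 for Mast2, -0.42 to 0.20 for Sesn1, -0.73 to 0.79 for Timp1, -0.043 to 0.44 for Trp63 and -0.15 to 0.012 for Xpc. The number of gene lists with a median above 0 was 18 of 35, and 16 to 24 in the alternatives. That count hides moves of single lists: of 280 alternative list medians 67 moved, and 12 medians changed sign without saline a and 7 without saline b.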
